A study of Mus musculus and Meriones unguiculatus with 4 samples.

Results

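Genes of cell-cell junctions were followed in the enamel knots of developing mouse and gerbil teeth, a group of 34 named genes of adherens junctions, desmosomes, tight junctions and gap junctions. A gene entered when its symbol, case ignored, occurred once in the mouse table and once in the gerbil table, which 29 of the 34 did, out of 13325 symbols matched in both tables. The 5 others had no row under their symbol in the gerbil table. All 29 matched genes passed the filter on low values, among 10162 genes in all.

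RNA sequencing was done on 4 libraries, 2 of mouse at embryonic day 13 and 2 of gerbil (Meriones unguiculatus) at embryonic day 15, all wild type and labelled as epithelial cells. Tooth germs of the mandible were fixed with paraformaldehyde and cryosectioned, and the knot was cut out by laser microdissection. How many animals went into a sample was not given in the sources used here, so the spread between the libraries of a species may be technical. The column names end in PEK and SEK for mouse and contain E21 and E23 for gerbil. The labels explain none of these, and E21 and E23 differ from the labelled day. Should they stand for stages or regions, the SE values below hold that difference too and the 2 libraries of a species are no replicates.

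Epithelial cells are held together by several junctions that share a plan. In adherens junctions and desmosomes, cadherins span the membrane and bind their partners on the next cell, while catenins, plakoglobin, plakophilins and desmoplakin link them to actin or to keratin filaments. Tight junctions, built from claudins, occludin and tricellulin on a ZO protein scaffold, seal the space between cells, and gap junctions made of connexins let small molecules pass. The enamel knot is a non-dividing signalling centre of the dental epithelium, and junctions keep it part of that epithelial sheet.

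A level here is the deposited FPKM (mouse) or TPM (gerbil) value, both per transcript length, rescaled to 1000000 over the matched genes of a library. Matched genes held 0.00111% and 0.000382% of the deposited PEK and SEK columns and 13.3% and 11.8% of the E21 and E23 columns. A level is therefore no share of all deposited values. Differences between species are gerbil minus mouse in mean log2(level + 1), with the standard error (SE) over 2 libraries per species. Beforehand a trend with transcript length was removed from each library. Transcript length here is the exon-union length of the mouse gene, for the gerbil libraries too, and GC content is that of its longest mouse transcript. With a pseudocount of 1 the changes of low genes come out too small, and a difference can depart from the ratio of the printed levels, which carry no correction. A call required the lower library of one species to exceed the higher library of the other at least 2-fold on the corrected scale. No test was run between the species, since the tables were normalized separately and 2 against 2 libraries cannot give an exact two-sided p below 0.333. Mouse depth is unknown and gerbil depth was not analysed here, so no detection limit is given.

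The summed dental epithelium markers were high in all libraries, while single ones among them and markers of other tissues varied with the library. The dental epithelium markers (10 of 11 tested) summed to levels of 5982 and 7688 in mouse PEK and SEK and 9615 and 8704 in gerbil E21 and E23, with none at 0. Krt5 and Krt14 carried much of these sums, at 1624 and 1739 in PEK and 6042 and 1030 in E21. Sp6 was low in mouse, at 11.8 and 16.1. From PEK to SEK, Krt15 went from 24.3 to 341 and Irx1 from 69.5 to 6.78. The 15 mesenchyme markers summed to 1114 and 1542 in mouse and 3997 and 4610 in gerbil. Markers of surface epithelium (7 of 9 tested) summed to 1006 and 4614 in PEK and SEK and to 334 and 1045 in E21 and E23, and 6 of the 7 were listed at 0 in E21. The keratin genes Krt4 and Krt13 stood at 238 and 274 in SEK and 304 and 396 in E23. They were at 0.511 and 0.492 in PEK and listed at 0 in E21. This pair was singled out after its values were seen. On the corrected scale, 6 of the 7 were past 2-fold higher in SEK (7.44% of all genes were) and 5 in E23 (6.03%). Sfn, at 334 in E21 and 303 in E23, made up the whole E21 sum, and Lypd3 was listed at 0 in both gerbil libraries. The endothelial markers (5 of 7 tested) summed to 5.77 and 24.5 in PEK and SEK, 0.754 in E21 and 102 in E23. Egfl7, a listed endothelial marker that was matched but not tested, lies outside these sums. It stood higher, at 106 and 189 in PEK and SEK and 33.7 and 53.4 in E21 and E23, so the sums understate the listed markers. Muscle markers (7 of 9 tested) summed to 121 and 440 in mouse and 5.65 and 18.4 in gerbil, the 2 tested blood and immune markers to at most 18.3 and the 4 tested nerve and glia markers to at most 48.8 in any library. In tissue samples, fewer cells of a type and less RNA per cell cannot be told apart.

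Promoter stretches are shown for the 7 called members that had a window in the RefSeq table, each at the first start the table lists, so that the starts of mouse-higher and gerbil-higher genes can be read side by side. The E-box CACCTG, or CAGGTG on the other strand, is a sequence bound by Snail and Zeb factors, which are known repressors of Cdh1 and of claudin and occludin genes. The stretches come from RefSeq on GRCm38.p6, run from 150 bases before the annotated start to 30 bases from it, and carry the E-box in capitals. Those of genes called higher in mouse are Tjp3 (chr10:81291552-81291731, minus strand), Marveld2 (chr13:100616942-100617121, minus strand), Cldn4 (chr5:134946905-134947084, minus strand) and Cldn6 (chr17:23679215-23679394, plus strand). Those of genes called higher in gerbil are Vcl (chr14:20929248-20929427, plus strand), Dsp (chr13:38151144-38151323, plus strand) and Cldn12 (chr5:5514947-5515126, minus strand).
Tjp3: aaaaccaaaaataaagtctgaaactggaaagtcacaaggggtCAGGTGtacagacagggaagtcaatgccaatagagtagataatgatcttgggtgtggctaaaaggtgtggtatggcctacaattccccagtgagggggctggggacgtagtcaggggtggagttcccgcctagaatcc
Marveld2: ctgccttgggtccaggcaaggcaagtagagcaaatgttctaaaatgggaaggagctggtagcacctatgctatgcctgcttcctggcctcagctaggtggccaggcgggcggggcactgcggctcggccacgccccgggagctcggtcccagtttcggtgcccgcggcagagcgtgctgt
Cldn4: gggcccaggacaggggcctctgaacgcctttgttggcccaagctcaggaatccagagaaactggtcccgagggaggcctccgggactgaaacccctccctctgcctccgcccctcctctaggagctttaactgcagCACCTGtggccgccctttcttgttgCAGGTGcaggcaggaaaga
Cldn6: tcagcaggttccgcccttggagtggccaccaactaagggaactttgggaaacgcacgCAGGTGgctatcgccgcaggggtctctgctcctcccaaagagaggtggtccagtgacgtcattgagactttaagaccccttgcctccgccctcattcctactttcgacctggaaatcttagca
Vcl: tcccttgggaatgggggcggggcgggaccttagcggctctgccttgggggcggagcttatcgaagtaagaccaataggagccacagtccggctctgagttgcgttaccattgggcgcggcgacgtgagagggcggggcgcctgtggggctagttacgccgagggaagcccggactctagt
Dsp: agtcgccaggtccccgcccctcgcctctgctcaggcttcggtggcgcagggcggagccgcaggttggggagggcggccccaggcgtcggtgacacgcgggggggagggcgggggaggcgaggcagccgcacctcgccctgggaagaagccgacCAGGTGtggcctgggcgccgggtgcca
Cldn12: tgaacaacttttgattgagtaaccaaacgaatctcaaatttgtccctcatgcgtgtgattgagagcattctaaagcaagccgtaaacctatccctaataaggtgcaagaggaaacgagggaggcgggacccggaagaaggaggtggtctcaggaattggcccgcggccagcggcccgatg

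Windows of 300 bases around the start (250 before, 50 after) were present in the RefSeq table for 22 of the 34 genes, some with more than 1 start, and missing for Cdh1, Cdh2, Cdh3, Ctnna1, Dsg2, Dsg3, Dsc2, Dsc3, Pkp1, Pkp2, Pkp3 and Perp. At least 1 E-box lay in 14 of these 22 genes, that is 63.6%, against 22.6% of all 27025 genes with a window. All 4 genes called higher in mouse that had a window held one, as did 1 of 3 called higher in gerbil (Dsp) and 8 of 12 called neither. Among the printed stretches Cldn4 held E-boxes at positions -14 and 12, Cldn6 at -93, Tjp3 at -108 and Dsp at 4, counted from 1 at the start. Marveld2 held its E-box at position 44, past the printed end, and Vcl and Cldn12 held none in their windows. CAGGTG is also what an exon end followed by an intron start can spell, so a match after the start need not be a factor's site. The AP-1 type motif TGANTCA occurred in 3 of the 22 genes (13.6%, against 8.97% of all), namely Cldn4, F11r and Gja1, and the Grainyhead type motif AACNGGTT (AACCNGTT on the other strand) in 2 (9.09%, against 2.35%), namely Cgn and Gjb6. These shares are descriptions of letters in a window, and a window without a match says nothing of a factor's action elsewhere.

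Between the species, the chosen junction genes differed by kind. This describes the members alone, since the other adherens junction genes, given further on, had a median of -0.35 and the other tight junction genes one of 0.47. Adherens junction and desmosome members called in gerbil were led by Vcl (vinculin), the desmosomal cadherins Dsg3 and Dsc2, Dsp (desmoplakin) and Cdh1 (E-cadherin), while Cldn6, Tjp3 and Cldn4 led the tight junction members called higher in mouse. Of the 29 members, 7 were called higher in gerbil (24.1%, against 13.4% of all genes tested) and 5 higher in mouse (17.2%, against 14.7%), and 17 met neither criterion. Together 41.4% of the members were called, against 28% of all genes. The members' median difference was 0.23, and that of all genes was -0.02. Libraries of the species did not overlap on the corrected scale in 22 members, 11 higher in gerbil (37% of all genes) and 11 higher in mouse (37.3%), where 74.3% of all genes showed no overlap.

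**Figure D1:**
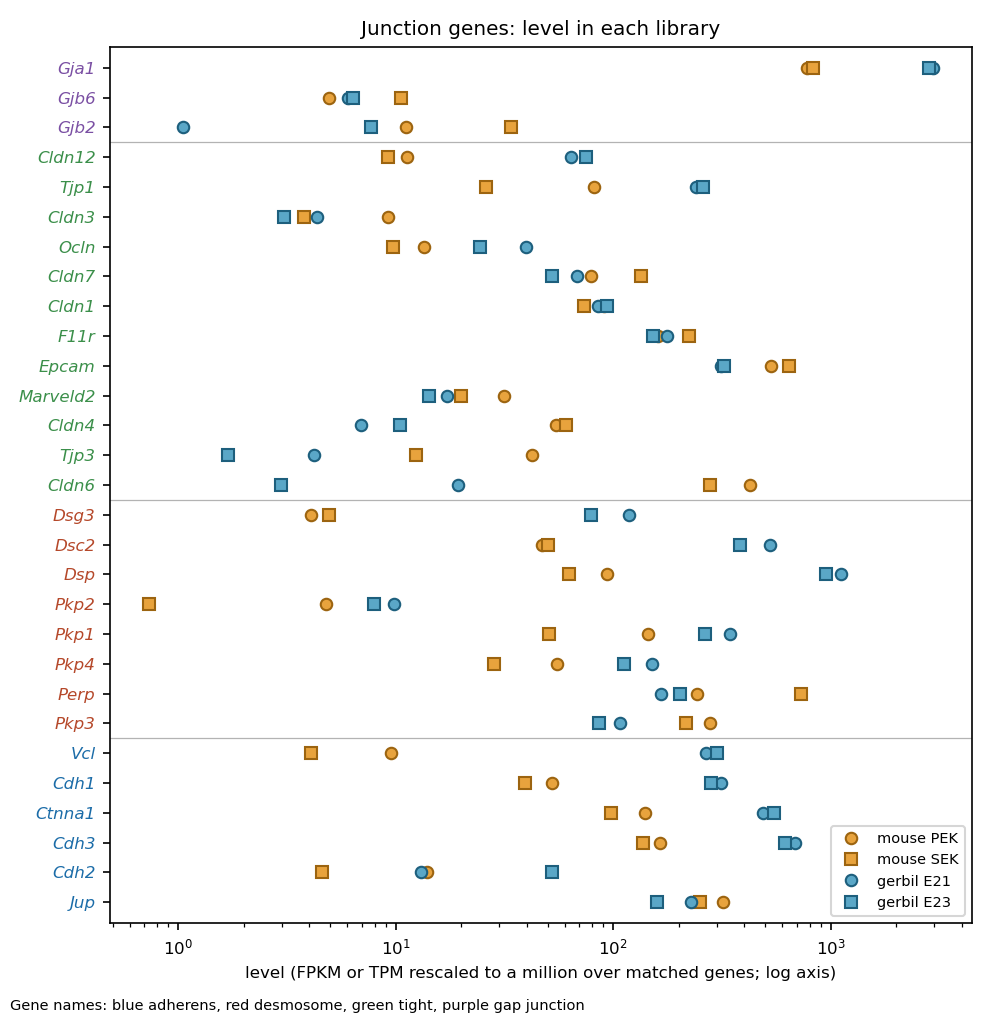
Level of each of the 29 matched junction genes (rows, grouped by junction type) in the 4 libraries, on a log axis; circles and squares are the libraries of a species, orange for mouse and blue for gerbil. Gja1 was the highest member in every library, and Vcl, Dsp, Dsc2 and Dsg3 had both blue points far to the right of both orange ones.

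The classical cadherins of the adherens junction differed from each other. Cdh1, the E-cadherin gene of epithelia (chr8:106603351-106670246 in the GRCm38 mouse table), was at 52.2 in PEK and 39.3 in SEK of mouse and at 313 in E21 and 283 in E23 of gerbil. The gerbil libraries lay above both mouse libraries, and the corrected difference was 1.49 ± 0.06 (SE), or 2.81-fold. Cdh3, encoding P-cadherin of basal and placode epithelium, lies 46.4 kb from Cdh1 and was at 165 and 137 in mouse and 686 and 617 in gerbil. Its libraries did not overlap either, but the difference of 0.88 ± 0.11 stayed short of a call after the length correction (1.47 and called without it). Cdh2, the N-cadherin gene of mesenchyme and nerve, was low, at 14.0 and 4.59 in mouse and 13.1 and 52.6 in gerbil, and overlapped between the species (0.15 ± 1.08). E-cadherin transcripts were outnumbered by P-cadherin transcripts in all 4 libraries, with a Cdh3 to Cdh1 ratio of 3.16 and 3.49 in mouse and 2.19 and 2.18 in gerbil. That ratio was higher in both mouse libraries than in both gerbil libraries, with or without the length correction.

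Of the cytoplasmic partners of cadherins, the actin linkers stood higher in gerbil and plakoglobin did not. Vcl (chr14:20929433-21033673), whose product vinculin reinforces cadherin-actin links under tension, was at 9.56 and 4.08 in mouse and 267 and 302 in gerbil. Among members called higher in gerbil it had the largest corrected difference, 3.72 ± 0.24, or 13.2-fold. Ctnna1, encoding the actin-binding alpha-catenin, was at 140 and 97.3 in mouse and 489 and 551 in gerbil (1.27 ± 0.15, called), and the call ended when a trend with GC content was removed as well (1.11). Jup, encoding plakoglobin, which serves both adherens junctions and desmosomes, was at 320 and 250 in mouse and 228 and 159 in gerbil. Its difference of -1.08 ± 0.24 was not called. Without E21, the gerbil library nearer to mouse, it was called (-1.28), but leaving out that library can only widen the gap apart from refitting. Of the 6 adherens junction members tested, 3 were called higher in gerbil and none in mouse, with a median of 1.07. Of all genes, 13.4% were called higher in gerbil and 14.7% in mouse. The counts were 4 and 0 without the length correction (18.4% and 19.4% of all genes). With the GC trend also removed they were 2 and 0 (11.4% and 13.9%).

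In the desmosome, the cadherin genes Dsg3 and Dsc2 and the desmoplakin gene were higher in gerbil and the plakophilins went several ways. The cadherin members Dsg2 and Dsc3 had no gerbil row, and in both mouse libraries they lay above Dsg3 and Dsc2, respectively. Dsp (chr13:38151328-38198577), encoding desmoplakin, the link to keratin filaments, was at 94.1 and 63.0 in mouse and 1111 and 957 in gerbil. Both gerbil libraries lay far above mouse, and the difference was 1.51 ± 0.15 after the length correction and 3.09 before it. Its transcript length of 9592 bases is the longest of the tested members. Dsg3, the desmoglein gene of stratified epithelium, was at 4.09 and 4.95 in mouse and 119 and 79.1 in gerbil (2.35 ± 0.52, called). Dsc2, a desmocollin gene, was at 47.2 and 50.4 in mouse and 526 and 384 in gerbil (1.87 ± 0.35, called), and that call ended with the GC trend also removed (1.54).

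Pkp3, encoding a plakophilin that clusters desmosomal cadherins in epithelia (chr7:141078218-141090510), went the other way. It stood at 280 and 217 in mouse and 108 and 85.8 in gerbil, with no overlap and a called difference of -1.90 ± 0.21. Pkp1, the plakophilin gene of stratified epithelium, was at 144 and 50.9 in mouse and 344 and 264 in gerbil, but its libraries overlapped after the correction (0.45 ± 0.55). The p120-related gene Pkp4 was not called (0.28 ± 0.29), and neither was Pkp2, which was under a level of 10 in all libraries (1.18 ± 0.86). Perp, encoding a tetraspan protein of desmosomes, was at 243 and 733 in mouse and 165 and 203 in gerbil. The mouse libraries were the higher ones but far apart from each other, and the gene was not called (-0.94 ± 0.68). Of the 8 desmosome members tested, 3 were called higher in gerbil and 1 was called higher in mouse (median 0.82), where 13.4% and 14.7% of all genes were.

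The make-up of the desmosome transcripts therefore differed within a library as well, where scaling between libraries plays no part though transcript length does. The Jup to Dsp ratio of levels was 3.41 and 3.97 in mouse PEK and SEK and 0.205 and 0.167 in gerbil E21 and E23. With length-corrected levels it was 2.39 and 1.70 in mouse and 0.363 and 0.305 in gerbil, so the species stayed apart by less. No ratio was taken with the GC trend also removed, which brought the species difference of Jup to -0.55 and that of Dsp to 1.51. The Pkp3 to Pkp2 ratio was 58.3 and 294 in mouse and 11 and 10.7 in gerbil, with Pkp2 low throughout and at 0.738 in SEK. Pkp1 to Pkp2 overlapped at first (30.02 and 68.9 in mouse, 35.1 and 33.1 in gerbil), and separated the species only on corrected levels (34.3 and 88.7 against 25.7 and 24.5).

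**Figure D2:**
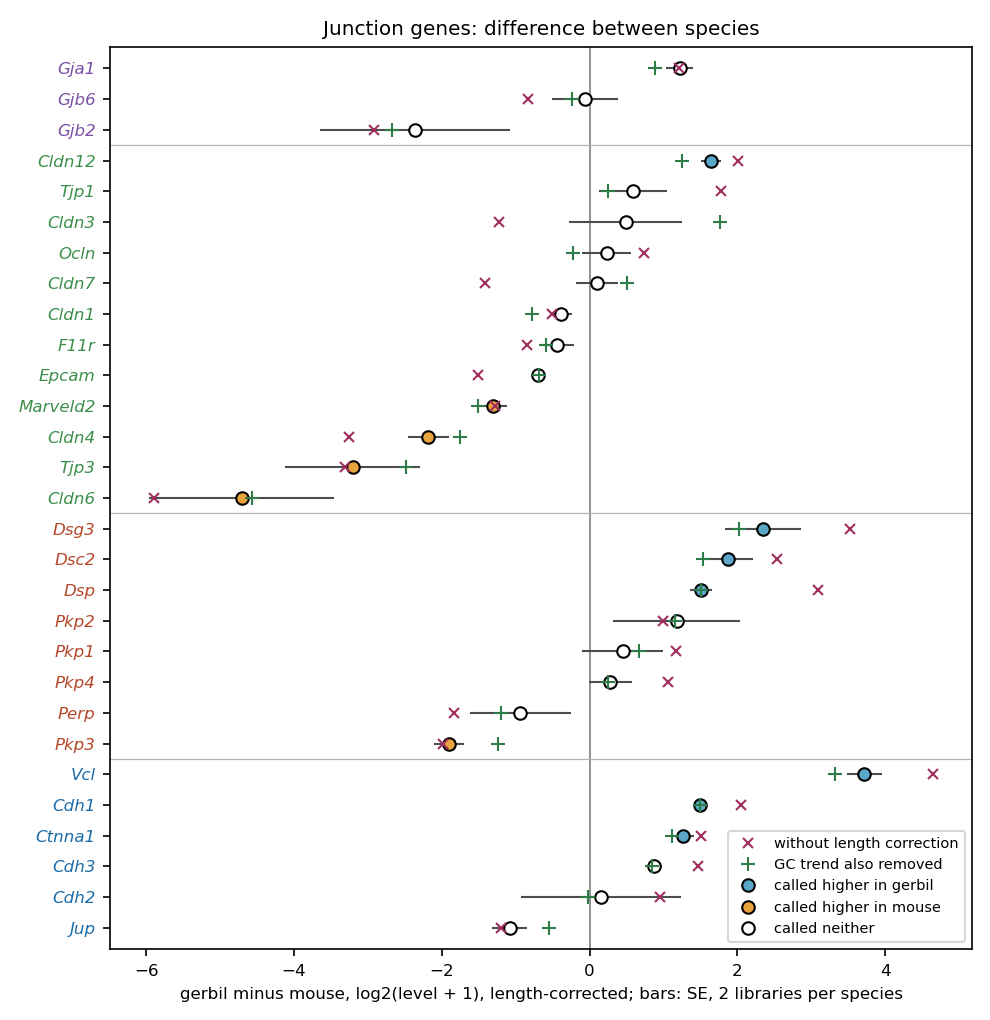
Gerbil minus mouse in log2(level + 1) for the 29 members, grouped by junction type; filled circles are called genes, bars are the SE over 2 libraries per species, crosses are values without the length correction and plus signs values with a GC trend also removed. Vcl stood at 3.72 and Cldn6 at -4.71, and the crosses of Dsp (3.09) and Cldn7 (-1.42) lay far from their circles.

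Tight junction members leaned to mouse, with claudins on both sides. Cldn6 (chr17:23679365-23682446), a claudin gene of embryonic epithelia, was at 426 in PEK and 278 in SEK of mouse and at 19.3 in E21 and 2.97 in E23 of gerbil. This was the largest difference of any member, -4.71 ± 1.25, and it moved with the gerbil library, to -5.86 without E21 and -3.55 without E23. Cldn4, a claudin gene of simple and surface epithelia (chr5:134945119-134946934), was at 54.4 and 60.7 in mouse and 6.94 and 10.5 in gerbil (-2.18 ± 0.27, called). Its neighbour Cldn3, 39.3 kb away, was under a level of 10 everywhere and not called (0.49 ± 0.76). The sign of the Cldn3 difference turned without the length correction (-1.22), and with the GC trend also removed the gene was called higher in gerbil (1.76). Its transcript length of 1259 bases was the shortest of the tested members, and its GC content of 62.7% the highest.

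Cldn12 (chr5:5489537-5514958), a claudin gene of atypical sequence, was the 1 tight junction member called higher in gerbil. It was at 11.3 and 9.21 in mouse and 63.7 and 75.0 in gerbil (1.65 ± 0.13). Cldn1, which encodes the main barrier claudin of stratified epithelium, was at 91.2 and 73.2 in mouse and 85.6 and 93.5 in gerbil, levels that overlapped (-0.38 ± 0.15 after correction, not called). Cldn7 was at 79.4 and 135 in mouse and 68.2 and 52.4 in gerbil (0.10 ± 0.28), and its sign turned without the length correction (-1.42). Within a library, the Cldn6 to Cldn7 ratio was 5.37 and 2.06 in mouse and 0.283 and 0.0568 in gerbil. The Cldn3 to Cldn4 ratio was the reverse, 0.170 and 0.0624 in mouse and 0.630 and 0.293 in gerbil.

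Among scaffold and other transmembrane proteins, Tjp3, encoding the scaffold ZO-3, was higher in mouse (chr10:81273207-81291267). It was at 42.3 in PEK and 12.4 in SEK of mouse and at 4.22 in E21 and 1.70 in E23 of gerbil, and every mouse library exceeded every gerbil library. The difference of -3.21 ± 0.92 was called, and became -2.43 without PEK and -3.99 without SEK. Tjp1, encoding the ubiquitous scaffold ZO-1, was at 81.4 and 26.1 in mouse and 241 and 260 in gerbil, but was not called after the length correction (0.59 ± 0.46, and 1.78 and called without it). The Tjp3 to Tjp1 ratio was 0.520 and 0.473 in mouse and 0.0175 and 0.00654 in gerbil, and on length-corrected levels it was 0.412 and 0.242 against 0.0266 and 0.00904. Marveld2, encoding tricellulin of the corners where cells meet (chr13:100595956-100616971), was at 31.5 and 20.05 in mouse and 17.2 and 14.3 in gerbil. It was called higher in mouse (-1.31 ± 0.19), but not without the length correction (-1.28) or with no filter on low values. Ocln, the occludin gene 43.1 kb from it, was at 13.5 and 9.75 in mouse and 39.8 and 24.4 in gerbil and was not called (0.23 ± 0.33).

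Epcam and F11r, encoding an adhesion molecule that binds claudins and the junctional adhesion molecule JAM-A, were high in all libraries. Epcam was at 529 and 645 in mouse and 313 and 323 in gerbil (-0.70 ± 0.07, not called, though called without the length correction at -1.51). F11r was at 160 and 224 in mouse and 176 and 152 in gerbil (-0.43 ± 0.22, not called). Of the 12 tight junction members tested, 4 were called higher in mouse and 1 in gerbil (median -0.41), where 14.7% and 13.4% of all genes were. Without the length correction, 4 were called higher in mouse and 2 in gerbil (19.4% and 18.4% of all genes). With the GC trend also removed the counts were again 4 and 2 (13.9% and 11.4%). With neither centring nor correction, which lifts the median of all genes to 0.62, the counts were 3 in mouse and 2 in gerbil. Of all genes, 11.9% and 29.7% were called there.

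Of the connexins, Gja1 dominated in both species. Gja1, which encodes the widely expressed connexin 43, was at 776 and 831 in mouse and 2949 and 2842 in gerbil, at or above the 98.1 percentile of tested genes in each library. Its libraries did not overlap, and the difference of 1.22 ± 0.18 fell just short of a call, with a gap of 0.995 log2 units where 1 was needed. Of the 7 alternative settings that keep all libraries, 5 called it, and a pseudocount of 0.1 and removal of the GC trend (0.89) did not. Gjb2, encoding connexin 26 of surface and sensory epithelia, was at 11.2 and 33.9 in mouse and 1.06 and 7.73 in gerbil (-2.36 ± 1.29, not called). Gjb6, encoding connexin 30 and lying 18.5 kb from Gjb2, was at 4.92 and 10.6 in mouse and 6.03 and 6.37 in gerbil, with overlap (-0.06 ± 0.45). The Gjb2 to Gja1 ratio was 0.0144 and 0.0408 in mouse and 0.000358 and 0.00272 in gerbil.

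Transcript length and base composition moved with these calls. Before correction, the gerbil minus mouse difference of all genes had a median of -1.80 among the 1017 genes with the shortest transcripts and of 1.43 among the 1017 with the longest. The 7 members called higher in gerbil had transcript lengths of 3733 to 9592 bases and 42.5% to 51.8% GC. The 5 called higher in mouse had lengths of 1721 to 3382 bases and 49.2% to 60.7% GC. After the length correction the difference of all genes still varied with GC, with a median of 0.51 among the 1017 genes of lowest GC and -0.76 among the 1017 of highest. With that trend removed too, 6 members were called higher in gerbil (against 11.4% of all genes) and 5 in mouse (against 13.9%), and their median was 0.25. Cdh1, Vcl, Dsp, Dsg3, Cldn12, Pkp3, Tjp3, Cldn4 and Cldn6 kept their calls under each of the 7 alternative settings with all libraries that tested them. Ctnna1, Dsc2 and Marveld2 did not.

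**Figure D3:**
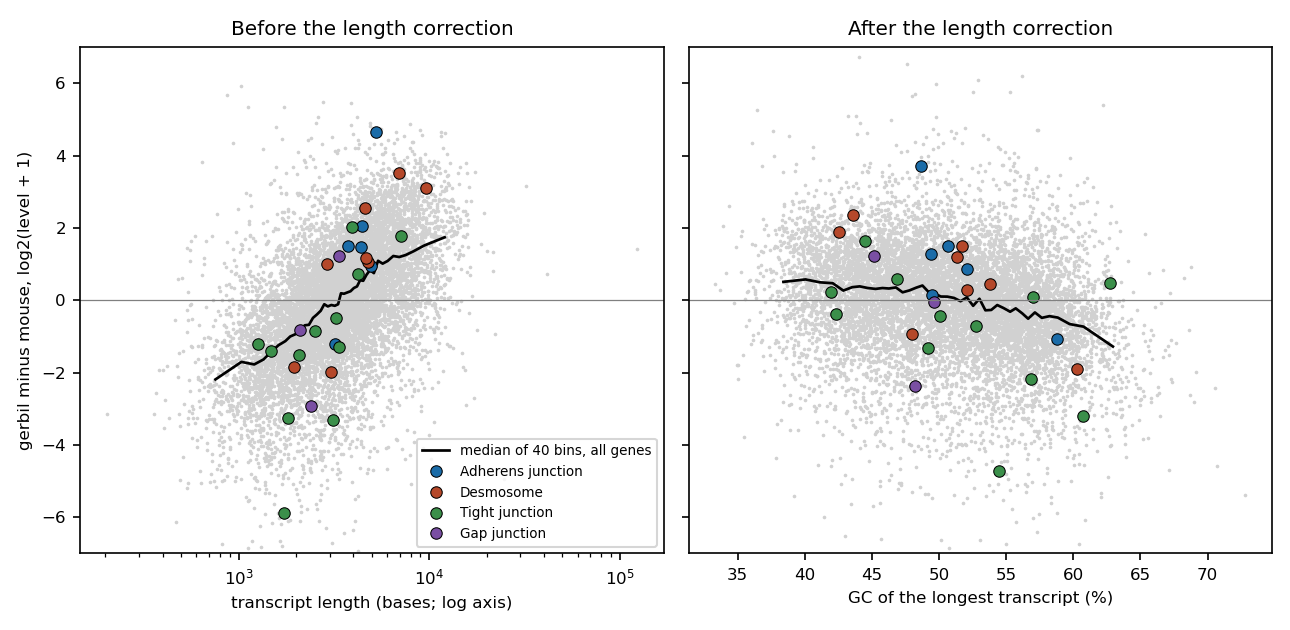
Gerbil minus mouse in log2(level + 1) against transcript length on a log axis before the length correction (left) and against GC content after it (right); grey points are all tested genes within 7 log2 units, the line is the median of 40 bins and coloured points are the members. Dsp, with 9592 bases, lay farthest right on the length axis.

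The 2 mouse libraries differed in some junction genes. Set against PEK, SEK held more Perp and Gjb2 and less Tjp3, Pkp2, Pkp1 and Cldn3. With 1 library each there is no replicate check, and a gene is counted when it differed at least 2-fold on the corrected log2(level + 1) scale. By that count 2 of the 29 members were higher in SEK (7.44% of all genes were) and 4 in PEK (8.44% of all), together 15.9% of all genes. Perp went from 243 in PEK to 733 in SEK (1.32) and Gjb2 from 11.2 to 33.9 (1.44), and Gjb6 from 4.92 to 10.6 (0.90, and 1.16 without the length correction). The surface epithelium markers summed to 1006 in PEK and 4614 in SEK, and their part in these differences was not tested. Toward PEK, Tjp3 went from 42.3 to 12.4 in SEK (-1.61), Pkp2 from 4.80 to 0.738 (-1.70), Pkp1 from 144 to 50.9 (-1.04) and Cldn3 from 9.25 to 3.79 (-1.46). The Pkp1 difference passed below 2-fold under 4 alternatives, for example -0.95 with the GC trend also removed, and that of Cldn3 without the length correction (-0.90). Tjp1 (-0.89) was past 2-fold only without the length correction (-1.41), as was Cdh2 (-0.85, and -1.23 without it).

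The 2 gerbil libraries were closer to each other. E23 held more Gjb2 and Cdh2 than E21 and less Cldn6, with 2 members higher in E23 (6.03% of all genes were) and 1 in E21 (3.68%), where 9.71% of all genes were past 2-fold in either direction. Cdh2 was at 13.1 in E21 and 52.6 in E23, a difference of 1.99. The tested endothelial markers summed to 0.754 and 102 in these libraries, and Egfl7, outside that sum, stood at 33.7 and 53.4. Of the 15 mesenchyme markers, 5 were past 2-fold higher in E23 and 3 in E21, with a median difference of 0.76. Their sums of 3997 and 4610 are weighted by the matrix gene Tnc, at 1880 and 500, a marker singled out after its values were seen, and the part of such cells in the Cdh2 level was not tested. Gjb2 went from 1.06 to 7.73 (2.13), beside surface epithelium markers at 334 and 1045, whose part was likewise not tested. Cldn6 fell by 2.33 on the log2 scale, from 19.3 to 2.97. The 7 desmosome genes other than Perp were slightly lower in E23, with differences from -0.17 (Dsp) to -0.46 (Dsg3), none of them past 2-fold.

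By sign alone, 16 members were lower in SEK than in PEK (51.9% of all genes were) and 17 lower in E23 than in E21 (51.6%). The same sign in both species, SEK below PEK and E23 below E21, occurred in 9 members, namely Jup, Pkp1 to Pkp4, Tjp3, Marveld2, Cldn3 and Cldn6. Both were above in 5, Perp, Epcam, Gja1, Gjb2 and Gjb6, and 15 had opposite signs. Among all genes 28.9% were below in both and 25.4% above in both. The E23 minus E21 difference of Gja1 was small (0.11) and turned to -0.03 without the length correction, -0.053 with neither centring nor correction and -0.05 with the GC trend also removed. Gjb2 was the 1 member past 2-fold in both species. The labels do not say whether the contrasts of the 2 species are comparable. When SEK and E23, in which Krt4 and Krt13 stood high, were left out, the remaining PEK and E21 gave 8 members at least 2-fold higher in gerbil (21.4% of all genes were) and 7 in mouse (23.3%). The called members had to keep their side here, since a call already required each mouse library to differ from each gerbil library. Without SEK and E23 the corrected Cdh2 difference turned to -1.32, higher in mouse, though its levels were nearly equal, 14.0 in PEK and 13.1 in E21. That of Gjb2 became -2.64.

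**Figure D4:**
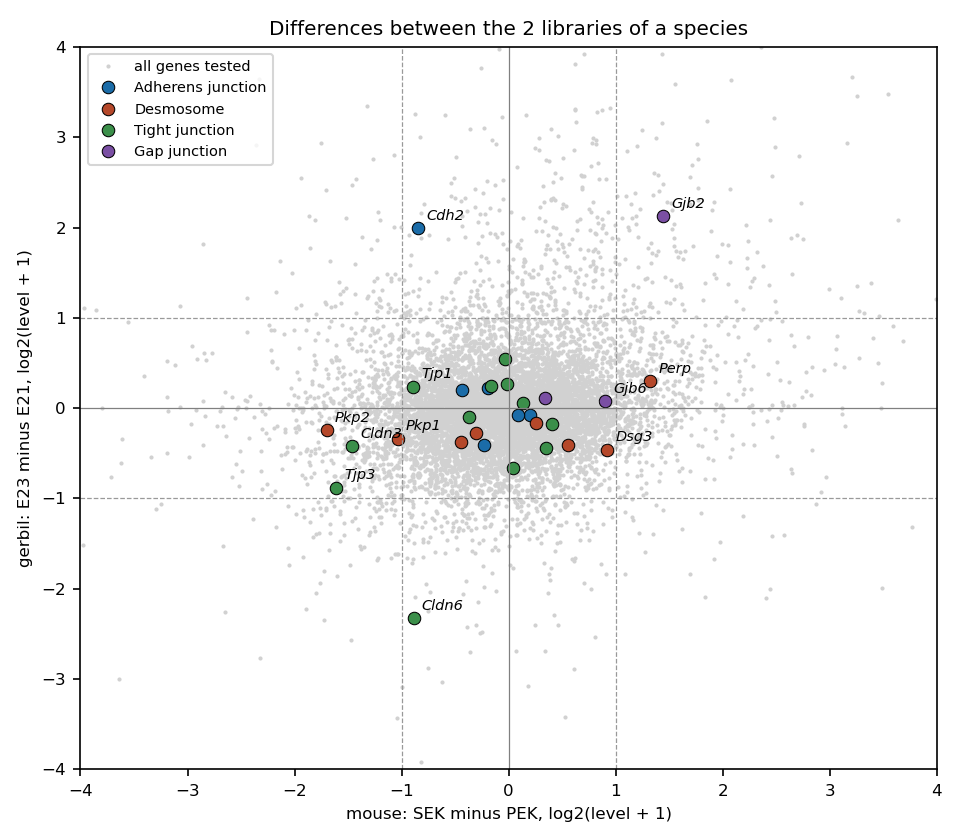
Difference between the libraries of a species in corrected log2(level + 1), SEK minus PEK in mouse (x axis) and E23 minus E21 in gerbil (y axis), for the members (coloured by junction type) over all tested genes (grey; axes end at 4); dashed lines mark 2-fold. Gjb2 stood past 2-fold on both axes, at 1.44 and 2.13, Cdh2 rose in gerbil E23 only and Cldn6 fell there.

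The 5 members without a gerbil row were measured in mouse only. Dsc3, a desmocollin gene of stratified epithelium, was at 81.6 FPKM in PEK and 38.5 in SEK, above Dsc2 at 20.8 and 24.6. Dsg2 was at 42.2 and 28.5 FPKM, far above Dsg3 at 1.80 and 2.41. Ctnnd1, encoding p120-catenin, was at 51.2 and 76.0 FPKM and the cingulin gene Cgn at 6.65 and 1.83. The polarity gene Pard3 was split over 2 mouse loci, at 25.2 and 14.5 FPKM for the longer and 1.09 and 2.42 for the shorter. No statement on the species can be made for these genes.

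Of 57 tested genes in the other junction and polarity lists, 12 were called (21.1%), against 28% of all genes. Of 12 tested adherens junction genes outside the members, none was called higher in gerbil and 2 were called higher in mouse, Ctnna2, the neural alpha-catenin gene (-4.15 ± 0.37), and Cdh4 (-1.90 ± 0.79). The Cdh4 levels, 1.60 and 0.771 in mouse and 0.226 and 2.47 in gerbil, overlapped, and that gene was not called without the length correction (-0.69). In the list of 4 tested desmosome and cornified envelope genes, Evpl, encoding envoplakin, was called higher in mouse (-1.84 ± 0.31) though its levels were nearly equal, 14.8 and 14.6 in mouse and 14.9 and 15.0 in gerbil. That call rests on the length correction (-0.61 without it) and ended with the GC trend also removed (-0.99). Of 21 other tight junction genes, 2 were called higher in gerbil, Amot, encoding angiomotin (3.31 ± 0.16), and Cldn20 (3.34 ± 0.26, and 1.17 without a call before the length correction). A further 3 were called higher in mouse, among them Marveld3, the paralog of Marveld2 (-2.85 ± 0.65). Of 11 polarity genes 3 were called higher in mouse and none in gerbil, with Pard6a at -2.91 ± 0.12 and the apical determinant Crb3 at -2.30 ± 0.41. Among 9 other connexin and pannexin genes, only Gja3 was called (-2.18 ± 0.51, higher in mouse). The medians of these lists were -0.35, 0.13, 0.47, -0.33 and -0.34.

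Most regulators of epithelial junction genes, transcription factors and the Esrp splicing factors, were not called. Of 12 tested activators of epithelial junction genes, 3 were called higher in mouse and none in gerbil, with a median of -1.29. Klf5 was at 123 and 139 in mouse and 53.1 and 51.8 in gerbil (-2.78 ± 0.39), and Esrp2, encoding an epithelial splicing factor, at 114 and 59.2 against 37.5 and 24.7 (-2.22 ± 0.39). Of 8 tested repressors, 3 were called higher in mouse and none in gerbil, with a median of -1.01. Of all genes 14.7% were called higher in mouse and 13.4% in gerbil. The repressors called higher in mouse included Tcf4 (-2.97 ± 0.26) and Tcf3 (-2.03 ± 0.46), and the Tcf3 call ended with the GC trend also removed (-1.25). The Snail and Zeb genes, named above as encoding factors that bind the printed E-box, are given for reference, chosen after their values were seen. Whether the other listed repressors, Tcf3 and Tcf4 among them, bind it too was not examined. Snai2 was at 66.9 and 87.9 in mouse and 82.7 and 85.1 in gerbil (0.33 ± 0.08), Snai1 at 19.1 and 19.4 against 18.2 and 46.6 (1.18 ± 0.67), Zeb1 at 5.16 and 5.15 against 10.2 and 18.0 (-0.44 ± 0.49) and Zeb2 at 4.73 and 3.02 against 15.4 and 36.5 (0.09 ± 0.66). None of these 4 was called.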

How the data were processed

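The authors deposited FPKM values for 27632 mouse loci. For gerbil, TPM values of 25745 genes from the deposited table were used. Both units are per the file headers. RSEM 1.3.1, STAR 2.7.1a, cutadapt 2.8 and GRCm38 (mm10) are named, without roles, in the submitters' processing notes. A gerbil build was not given in the sources used here. Another 4 per-sample columns of the gerbil table (reads and RPKM) were not used, because columns show the species and not which sample.

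Symbols found once in each table, without LOC, Gm and Rik names, were matched, each library was rescaled over them, and genes averaging a level of 1 or more that had a GENCODE M21 (GRCm38) exon-union length (by Ensembl ID) were kept. Log2(level + 1) deviations from the gene's mean had their median along transcript length, in 40 bins, subtracted per library. The planned settings were another pseudocount, 2 other filters, 20 bins, no correction, neither centring nor correction, and leaving out each library. Removing GC as well, leaving out SEK with E23, and corrected ratios were added after seeing the data. In simulated libraries with a length trend and 200 changed genes of level 10 or more, all genes changed by 2 or 3 log2 units were called (100%), and 0.01% of unchanged ones. Smaller changes, such as those of Cdh1 (1.49) and Ctnna1 (1.27), were not simulated. The 0.01% is no rate of false calls for the real libraries, where a GC trend remained after the length correction. All members are named, and of each other list at most 2 called genes per direction with the widest gap between the species, of which 1 is not reported here. The members and lists were chosen with earlier results of these data known. Python 3.11.15, numpy 2.4.6 and pandas 2.3.3 were used.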

Additional observations from a re-analysis of the deposited data

How the results depend on the processing

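Of the 12 members called between the species, 9 kept their call under each of the 7 alternatives with all libraries that tested them. Leaving out libraries could hardly end a call, because it can only widen the gap between species apart from refitting, so the 5 such alternatives say nothing of stability. Ctnna1 and Dsc2 lost the call with GC also removed, and Marveld2 without the length correction, with neither centring nor correction, and with no filter. With neither centring nor length correction, 11 members were called higher in gerbil (29.7% of all genes) and 4 in mouse (11.9%), the members' median was 1.37 (all genes 0.62), 7 were past 2-fold toward PEK (17.1% of all genes), and the SEK minus PEK median was -0.36. Without the length correction the median was 0.73. With a level of at least 10 in each species, 6 were called higher in gerbil (10% of all genes) and 3 in mouse (11.3%). Under that filter 1 was higher in SEK (5.3%), 0 in PEK (5.55%), 0 in E23 (2.14%) and 1 in E21 (1.38%). Low genes (Cdh2, Vcl, Dsg3, Pkp2, Tjp3, Cldn3, Cldn4, Gjb2 and Gjb6) drop out there, but Pkp1 was still tested and passed below 2-fold (-0.93). A pseudocount of 0.1 gave 4 higher in SEK (10.2% of all genes) and 2 higher in E21 (5.08%). Leaving out 1 library in turn gave 8 to 10 higher in gerbil (16.6% to 19.3% of all genes), 5 to 7 in mouse (18.6% to 20.4%) and medians of 0.060 to 0.54. Depth is unknown, so the counting error of low values (Pkp2 and Cldn3 in each library, Gjb2 and Cldn6 in gerbil E21 or E23) is unknown. That limit also touches Tjp3 (4.22 and 1.70) and Cldn4 (6.94 and 10.5) in gerbil. In mouse it touches Vcl (9.56 and 4.08) and Dsg3 (4.09 and 4.95). Tjp3, Cldn4, Vcl and Dsg3 kept their calls, but were not tested with a level of at least 10 in each species. No paired analysis was possible because the columns carry no replicate numbers and the species share no animals. The planned checks with read counts and RPKM of the gerbil table were not run, as those columns were not used.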
